A study of Mus musculus with 13 samples.

Results

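Deep-like cells were cells of the mouse claustrum dissection kept as excitatory neurons. Their mean for deep cortical markers was above their means for markers of the claustrum core and shell. The kept cells were those with at least 1 count of Snap25, a neuronal gene, and of Slc17a7, which encodes the vesicular glutamate transporter of most cortical excitatory neurons. Expression was taken as log2(CPM + 1), where CPM scales the counts of a cell, spike-ins left out, to the same total for every cell, and each gene was standardized over the kept cells. Each cell then received a mean for 5 core genes (Synpr, Gnb4, Lxn, Gfra1, Cpne4), for 4 shell genes (Slc30a3, Col6a1, Mpped1, Spon1) and for 5 deep genes (Sla, Foxp2, Rprm, Syt6, Tle4), and was called deep-like where the deep mean was the highest. This gave 138 deep-like cells of 1011 kept cells, or 13.7% (95% exact Clopper-Pearson interval, 11.6 to 15.9%), beside 439 core-like and 434 shell-like cells, which together made 873 other cells.

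Layer 6 is the deepest layer of the cortex and lies next to the claustrum. Its upper part, layer 6a, holds corticothalamic neurons, which send axons to the thalamus and carry genes such as Foxp2, Tle4 and Syt6. Its lower part, layer 6b, is a thin sheet above the white matter that descends in part from the embryonic subplate and is known for Ctgf, Cplx3 and Nxph4.

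The cells were picked by hand from 4 mature male C57BL/6 mice in 13 plates. In 1 mouse, called the blind mouse, a retrograde virus injected into the anterior cingulate cortex marked the claustrum for dissection, and cells were picked without regard to its fluorophore. In projection mice 1, 2 and 3, retrograde tracer marked neurons that project to the retrosplenial cortex (RSC) or the lateral entorhinal cortex (LEC), and cells were picked as RSC-labelled, LEC-labelled or unlabelled. The age of the mice is given only as mature, and cells were picked by hand, so their shares are not those of the tissue.

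The blind mouse contributed 38 deep-like cells of 238 kept cells, and projection mice 1, 2 and 3 contributed 48 of 224, 23 of 220 and 29 of 329. Whether molecular identifiers were collapsed is not given in the sources used here, so several counts can come from the same molecule, and the intervals given here cover counting error only. Cells of a mouse share their source. The blind mouse was sequenced apart and less deeply, so mouse, sequencing run and depth cannot be told apart for it. The median total of a deep-like cell was 28785 counts there, against 112376 to 130861 counts in the projection mice. Deep-like cells had a lower median total than the other cells of their mouse in 3 of 4 mice, with a geometric mean ratio of 0.858, and this difference was not past the threshold in a two-sided exact permutation test paired within mice (p = 0.375, where 0.13 is the smallest p that 4 mice allow). Barcode sequences were reused, with 1087 cells sharing theirs with a cell of another plate among 368 distinct barcodes, and 0 cells had identical counts. In the same cells the share of mitochondrial counts had a ratio of 1.03 (exact permutation p = 0.75).

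The deep genes chose the cells, so their levels are a description and were not tested. Rprm, the reprimo gene, stood at 108.3, 481, 291 and 369 CPM in the deep-like sums of the blind mouse and projection mice 1, 2 and 3, and at or below 1.31 CPM in every core-like and shell-like sum. Here a sum is the counts of all cells of a class in a mouse, and the CPM of sums were scaled by the TMM method. Foxp2, a forkhead transcription factor, ranged from 47.1 to 92.5 CPM in the deep-like sums, and Sla, a Src-like adaptor, from 27.8 to 60.2 CPM. Tle4, a corepressor, was the least clean of the 5, with 83.8 ± 19.4 CPM in deep-like cells and 10.9 ± 4.41 CPM in core-like cells (SD, n = 4 mice). Every mouse thus had its deep genes at the highest level in the class named for them, which the rule itself ensures.

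Of the core and shell genes, the shell genes other than Slc30a3 were also present in deep-like cells. Mpped1, which encodes a metallophosphoesterase, was at 391.9 ± 58.3 CPM in deep-like, 342 ± 71.4 CPM in shell-like and 9.04 ± 4.68 CPM in core-like cells (SD, n = 4 mice), and had a count in 123 of 138 deep-like cells. Spon1, encoding the matrix protein spondin 1, was at 161 ± 109.7, 234 ± 70.8 and 5.99 ± 2.74 CPM in the same order. Slc30a3, the synaptic vesicle zinc transporter, was at 21.9 ± 26.7 CPM in deep-like and 304 ± 55.8 CPM in shell-like cells. Synpr, the synaptic vesicle protein that marks the core, differed between mice within the deep-like sums, with 20.4 and 8.41 CPM in the blind mouse and projection mouse 2 and with 323 and 192 CPM in projection mice 1 and 3. The 2 mice with the higher deep-like Synpr still stood below the 1380 to 1930 CPM of the core-like sums.

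How firmly a cell was deep-like varied. Of the members, 15 had counts of all 5 deep genes, 30 of 4, 31 of 3, 28 of 2, 22 of 1 and 12 of none. The 12 cells with none had a median total of 10833 counts. A cell without a count of any rule gene has means of -0.326 (deep), -1.287 (core) and -0.993 (shell), so it is deep-like by default. The 12 cells are members because their core and shell means were lower still, and not because deep genes were seen. Among the other cells, 17 had counts of 2 deep genes and 0 had counts of 3 or more. The deep mean exceeded the next highest mean by 1.31 in the median member, and by less than 0.5 in 26 members. The members nearest the boundary had deep and next means of 0.219 and 0.210, 0.999 and 0.963, and 0.868 and 0.831, and the nearest cells outside had deep and highest means of 0.324 and 0.333 and of -0.326 and -0.312. When each gene was standardized within its mouse, 130 of the 138 members stayed members.

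**Figure D1:**
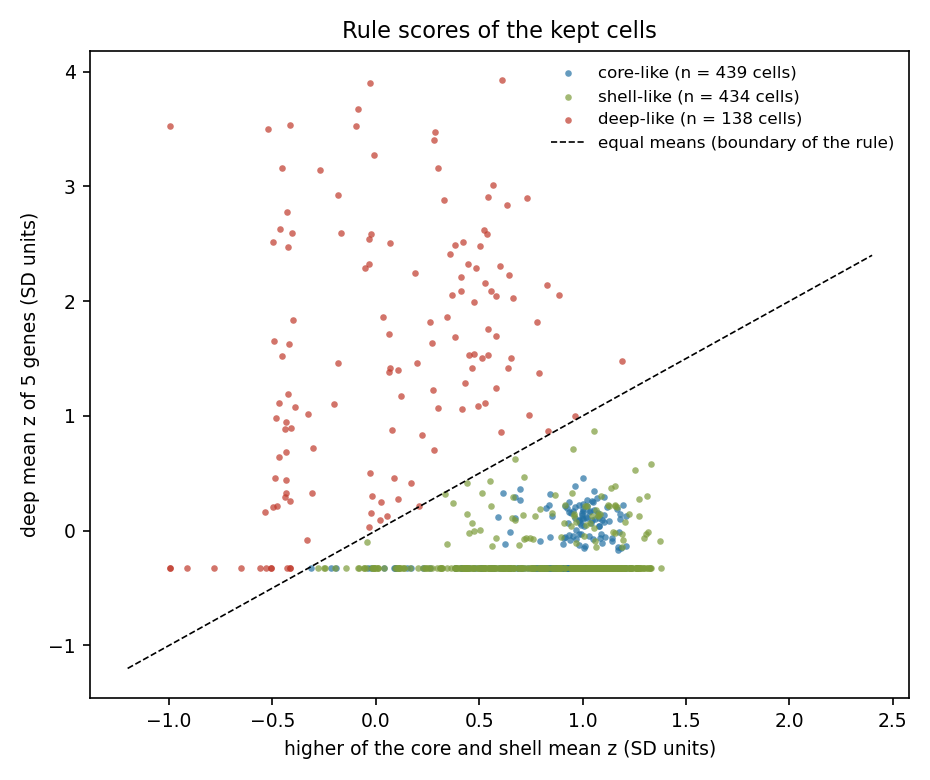
Deep mean z (vertical axis) against the higher of the core and shell mean z (horizontal axis), both in SD units, for the 1011 kept cells. Each point is a cell, coloured by class, and the dashed line is the boundary of the rule. The 138 deep-like cells lie above the line, by a median of 1.31.

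The share of deep-like cells differed between picks, and these shares are a description because cells were chosen by hand. Of cells without a projection label, 38 of 238 in the blind mouse were deep-like, or 15.97% (95% exact Clopper-Pearson interval, 11.6 to 21.3%). In projection mice 1, 2 and 3 the unlabelled shares were 47.5% (36.2 to 59.0%), 23.0% (13.99 to 34.2%) and 25.6% (16.8 to 36.1%). Of RSC-labelled cells 14 of 247 were deep-like, or 5.67% (3.13 to 9.33%), and of LEC-labelled cells 9 of 286, or 3.15% (1.45 to 5.89%). Within each projection mouse the unlabelled share stood above both labelled shares. Of these labelled members, 8 RSC-labelled and 4 LEC-labelled cells had counts of at least 2 deep genes. Labelled and unlabelled cells sat on different plates, so plate and label cannot be told apart.

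**Figure D2:**
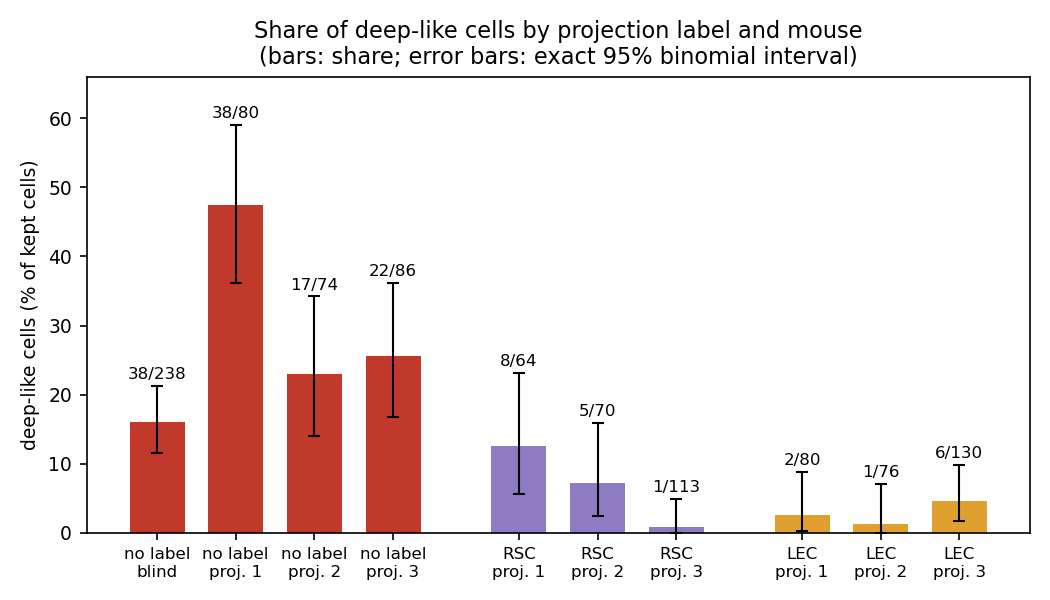
Share of deep-like cells (vertical axis, percent of kept cells) by projection label and mouse, with deep-like and kept cells written above each bar and exact 95% binomial intervals as error bars. Unlabelled cells have the highest share in each projection mouse, from 23.0 to 47.5%, against at most 12.5% in labelled cells.

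Which other genes set these cells apart was asked with the sums of each mouse, so that the 4 mice and not the cells were the replicates. The 14 rule genes and the 2 filter genes were not tested, but the cells were chosen on genes that may vary with the rest, so the tests below describe the classes and are not independent of the rule. Deep-like sums were compared with the sums of all other kept cells in edgeR by the quasi-likelihood test, with p adjusted after Benjamini and Hochberg and called under 0.05. Of 11793 genes tested, 405 were called (3.43%), of which 218 were higher in deep-like cells (1.85%) and 187 were lower (1.59%). The 4 deep-like values lay above all 4 other values in 5.05% of the genes and below them in 7.32%. Left without projection mouse 3 the counts fell to 31 and 17, without projection mouse 2 to 69 and 47, without projection mouse 1 to 82 and 77, and without the blind mouse to 180 and 137. In projection mice 1, 2 and 3, 38 of 48, 17 of 23 and 22 of 29 deep-like cells were unlabelled. Of the other cells 42 of 176, 57 of 197 and 64 of 300 were. Labelled and unlabelled cells sat on different plates, so class cannot be fully told apart from label and plate there. In unlabelled cells alone 181 genes were higher and 208 lower of 11225 tested. Of the 71 named genes called, 11 lost their call there.

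The largest rise among genes chosen by size was that of Lsp1, which encodes an actin-binding protein first described in lymphocytes. Lsp1 was at 96.0, 97.0, 79.0 and 87.9 CPM in the deep-like sums of the blind mouse and projection mice 1, 2 and 3, and at 0.176, 0.159, 0.131 and 0.0949 CPM in the other cells. The groups did not overlap and the deep-like values were close to each other in all 4 mice. The log2 fold change was 9.37 (standard error, SE, 0.29; adjusted p = 1.45e-07), and the gene was past the threshold under all 17 alternatives tried (highest adjusted p = 0.00132).

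Most listed layer 6a corticothalamic genes rose. Of 16 listed genes tested, 11 were higher, 0 were lower and 5 were not past the threshold, against 1.85% of all genes tested that were higher. The list median was 2.99 on the log2 scale, against -0.01 over all genes tested. The list was drawn up with earlier results of these data known, which named Lsp1, Pitpnc1, Fezf2 and Pcp4 among others, so its direction is not independent evidence. Without projection mouse 3 the number higher was 6, without projection mouse 2 it was 7, and without either the blind mouse or projection mouse 1 it was 9. Taken apart, 10 of the 16 genes were higher and 1 lower than in the core, and 7 were higher and 0 lower than in the shell. Of all genes tested, 4.74% were higher than in the core and 1.54% than in the shell.

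Pitpnc1, which encodes a phosphatidylinositol transfer protein, was at 95.2, 53.7, 123.6 and 63.4 CPM in deep-like sums and at 2.03 to 3.22 CPM in the other sums. Its log2 fold change was 4.93 (SE 0.34, adjusted p = 0.000238). Hs3st4, a heparan sulfate sulfotransferase, was at 189.6, 113, 194.9 and 172.2 CPM in deep-like sums against 8.56 to 22.0 CPM, a log2 fold change of 3.41 (SE 0.33, adjusted p = 0.00091). Ppp1r1b, which encodes the phosphatase inhibitor DARPP-32, was at 110.7 to 207.2 CPM against 9.65 to 20.1 CPM, a change of 3.42 (adjusted p = 0.000833). For these 3 genes the deep-like and other values did not overlap, and each was past the threshold under all 17 alternatives. Nxph3, a neurexin ligand, was at a lower level, 13.02 to 49.1 CPM against 0.418 to 1.21 CPM, with a change of 5.03 (adjusted p = 0.00267).

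Pcp4, a calmodulin regulator found across deep cortical layers, was at 3134, 1127, 1449 and 1296 CPM in deep-like sums and at 220, 176, 188 and 131 CPM in the other sums. Its log2 fold change was 3.29 (SE 0.33, adjusted p = 0.00115), under all 17 alternatives past the threshold. Pcp4 was at 25.7 ± 32.3 CPM in the core and 345 ± 55.9 CPM in the shell (SD, n = 4 mice). It passed against the core (6.155, adjusted p = 0.000196) and missed the threshold against the shell (2.32, adjusted p = 0.07). The blind mouse stood well above the others in deep-like cells. Pcp4 and Igsf5 share exonic bases of 1 strand in the GENCODE annotation, so reads of the pair could be exchanged.

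Fezf2, a transcription factor required for deep-layer projection neurons, was at 44.8, 61.0, 123.6 and 112.3 CPM against 2.64 to 11.7 CPM, a log2 fold change of 3.25 (SE 0.47, adjusted p = 0.00636). It lost its call without projection mouse 2 or 3 (adjusted p = 0.0575 and 0.0959). Against the shell alone Fezf2 missed the threshold (2.22, adjusted p = 0.0558), with 17.9 ± 9.25 CPM there (SD, n = 4 mice). Crym, a thyroid hormone binding protein, was low in the blind mouse, with 61.0 CPM in deep-like cells, and at 462, 613 and 530 CPM in projection mice 1, 2 and 3, against 21.2 to 83.4 CPM in other cells. The groups overlapped for Crym, though deep-like cells were higher within each of the 4 mice (change 2.94, adjusted p = 0.0298, and 0.15, 0.133 and 0.221 without projection mouse 1, 2 or 3). Zfpm2, a cofactor of GATA factors, changed by 3.04 (adjusted p = 0.00734, and 0.072 without projection mouse 3).

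The 5 listed genes that did not pass were Tbr1, Ntsr1, Sox5, Thsd7b and Sulf1. Tbr1, a T-box factor of early-born deep neurons, was at 113.1 ± 26.3 CPM in deep-like and 87.7 ± 15.8 CPM in other cells (SD, n = 4 mice), a log2 fold change of 0.37 (adjusted p = 0.459). Ntsr1, the neurotensin receptor much used to mark corticothalamic cells, was at 11.1 ± 5.32 and 8.09 ± 3.45 CPM, a change of 0.48 (SE 0.52, adjusted p = 0.794). Sox5 had a value of -0.92 (adjusted p = 0.108), and Thsd7b of 1.64 (adjusted p = 0.0612, and 0.00174 with DESeq2). Sulf1, a heparan sulfate sulfatase, had a value of -0.33 (adjusted p = 0.789). A missed threshold does not show that the classes were equal.

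Layer 6b and subplate genes were also higher, but in some mice more than in others. Of 8 listed genes tested, 4 were higher (Ctgf, Cplx3, Cyr61 and Kcnab1) and 0 were lower, against 1.85% and 1.59% of all genes tested, with a median log2 fold change of 3.71. The blocked fit called 5 higher and 1 lower. This list too was drawn up with earlier results known, which named Ctgf and Cyr61. Leaving out the blind mouse, projection mouse 1, 2 or 3 left 3, 2, 1 and 2 genes. Cplx3, a complexin of the synaptic release machinery, was at 1251 and 498 CPM in the deep-like sums of the blind mouse and projection mouse 2 and at 39.2 and 40.4 CPM in those of projection mice 1 and 3, against 3.87 to 21.9 CPM in other cells. Its log2 fold change was 5.58 (SE 1.19, adjusted p = 0.0317), and no call remained when any mouse was left out (adjusted p 0.0635 to 0.18). Ctgf, a secreted matrix-associated protein, was at 238, 21.4, 48.8 and 18.9 CPM against 0.360 to 3.65 CPM, a change of 5.24 (SE 1.02, adjusted p = 0.0219, and 0.0591 to 0.0906 with any mouse left out). For both genes every deep-like sum was above every other sum, with the blind mouse highest.

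Cyr61, a relative of Ctgf, was more even, at 59.4, 15.9, 73.5 and 59.1 CPM against 0.446 to 2.996 CPM (change 5.31, SE 0.73, adjusted p = 0.00477, and 0.0656 without projection mouse 3). Nxph4, a neurexin ligand of layer 6b, was at 80.6, 2.34, 12.2 and 1.75 CPM in deep-like sums, and 0 counts were seen in other cells of projection mice 1 and 3. Its log2 fold change of 6.97 had a SE of 1.99 and missed the threshold (adjusted p = 0.0995). A fit blocked by mouse called it (adjusted p = 0.0034). Nr4a2, an orphan nuclear receptor of layer 6b that also marks the claustrum, stood at 368, 206, 4.82 and 107.1 CPM in deep-like sums and at 692 to 1131 CPM in other sums, with a change of -2.42 (adjusted p = 0.168, and 0.0497 in the blocked fit). Every deep-like sum was below every other sum for Nr4a2, and the deep-like sums spread over a wide range.

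Sequence just upstream of the start site is shown for 3 genes of these lists, Cplx3 for layer 6b, Pcp4 for the deep layers at large and Fezf2 for the transcription factor. The 250 bases before the RefSeq start (build GRCm38.p6, not the build of the counts) lie at chr9:57606282-57606531 on the minus strand for Cplx3, chr16:96467356-96467605 on the plus strand for Pcp4 and chr14:12345866-12346115 on the minus strand for Fezf2. They are written 5′ to 3′ along the gene, with capitals where the 6 letters of the nuclear receptor motif AGGTCA, the kind of element that Nr2f2 and its relatives bind, occur on either strand.
Cplx3: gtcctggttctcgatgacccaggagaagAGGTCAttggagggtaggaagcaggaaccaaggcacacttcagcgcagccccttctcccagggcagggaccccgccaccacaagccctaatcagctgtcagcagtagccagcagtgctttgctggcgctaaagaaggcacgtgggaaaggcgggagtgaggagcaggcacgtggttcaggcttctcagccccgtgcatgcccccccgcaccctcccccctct
Pcp4: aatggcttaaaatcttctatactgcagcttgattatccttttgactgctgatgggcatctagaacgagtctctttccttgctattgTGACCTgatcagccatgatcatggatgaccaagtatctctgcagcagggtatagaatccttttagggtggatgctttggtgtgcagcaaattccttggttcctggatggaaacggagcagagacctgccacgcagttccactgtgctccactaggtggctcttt
Fezf2: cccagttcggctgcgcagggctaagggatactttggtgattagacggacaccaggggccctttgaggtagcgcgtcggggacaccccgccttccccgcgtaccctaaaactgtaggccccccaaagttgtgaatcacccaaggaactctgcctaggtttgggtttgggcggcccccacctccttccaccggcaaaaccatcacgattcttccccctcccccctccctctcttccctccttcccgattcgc

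The motif occurred once upstream of Cplx3 and once upstream of Pcp4 and did not occur in the Fezf2 stretch, and 4607 of all 32851 promoter stretches of the same length hold it on either strand. The letters TTGGCA of the NFI motif (12.3% of all stretches) and TCACACC of the T-box motif (3.33%) occurred in none of the 3 stretches. The Cplx3 and Fezf2 stretches were richer in G and C (62.8 and 61.2%) than the Pcp4 stretch (46.8%), with 9, 14 and 3 CpG dinucleotides. A match is a run of letters and was not tested for binding.

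**Figure D3:**
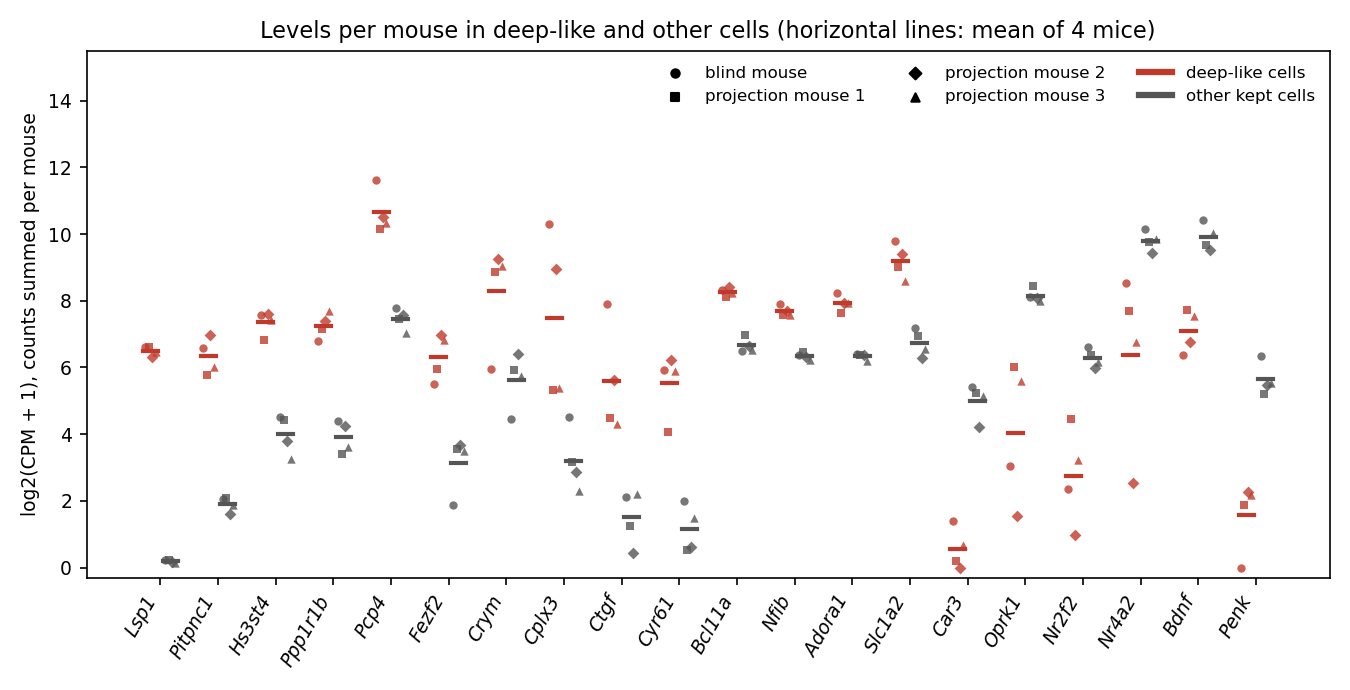
Levels of 20 genes in deep-like (red) and other kept cells (grey) as log2(CPM + 1) of counts summed per mouse, with a marker shape for each of the 4 mice and a line at the mean. Lsp1 has the widest gap, the layer 6b genes Cplx3 and Ctgf spread widely over mice, and the 6 genes from Car3 to Penk lie lower in deep-like than in other cells in every mouse.

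Some claustrum genes fell. Of 14 listed claustrum and claustrum-adjacent genes tested, 0 were higher and 6 were lower (Car3, Oprk1, Nr2f2, Cpne9, Cdh9 and Gng2), against 1.59% of all genes tested that were lower, and the median log2 fold change was -2.28. Leaving out the blind mouse left 3, projection mouse 1 or 2 left 4 and projection mouse 3 left 1, and the blocked fit called 8. Cpne9 (-2.75, adjusted p = 0.0224) lost its call without the blind mouse or projection mouse 3 (0.094 and 0.142). Car3, a carbonic anhydrase, was at 1.63, 0.156, 0 and 0.582 CPM in deep-like sums and at 41.6, 36.4, 17.4 and 34.7 CPM in other sums, a change of -6.37 (SE 0.71, adjusted p = 0.00204). It was past the threshold under all 17 alternatives. Gng2, a G protein gamma subunit, was at 178 ± 29.7 CPM against 418 ± 55.9 CPM, a change of -1.23 (adjusted p = 0.00406, and 0.0657 without projection mouse 3). The groups did not overlap for Car3 or Gng2. This list too was drawn up with earlier results of these data known. Taken apart, 9 of the 14 genes were lower and 3 higher than in the core, and 1 was lower (Cdh9) and 1 higher (Slc17a6) than in the shell, where the median was -0.25. Of all genes tested, 4.32% were lower and 4.74% higher than in the core, and 1.55% and 1.54% than in the shell. Against the shell Car3, Nr2f2, Cpne9 and Gng2 had values of 1.51, 1.25, -0.14 and 0.13, none past the threshold (adjusted p 0.336 to 0.978).

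Oprk1, the kappa opioid receptor, was at 7.32, 63.2, 1.93 and 47.1 CPM in deep-like sums and at 253 to 344 CPM in other sums, a log2 fold change of -3.20 (SE 0.75, adjusted p = 0.0483, and 0.0823 to 0.199 with any mouse left out). Nr2f2, the nuclear receptor COUP-TFII, was at 8.63 ± 8.84 CPM against 78.3 ± 15.3 CPM (change -3.07, adjusted p = 0.026, and 0.0971, 0.0539 and 0.179 without the blind mouse, projection mouse 2 or 3). Cdh9, a cadherin, was at 10.1 ± 7.04 CPM against 56.1 ± 13.5 CPM (change -2.39, adjusted p = 0.0244, and 0.0714, 0.162 and 0.162 without projection mouse 1, 2 or 3). Rgs12, a regulator of G protein signalling, had a value of -2.44 (adjusted p = 0.073, and 0.0338 in the blocked fit). In all 4 mice these 4 genes were lower in deep-like than in other cells.

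Against the claustrum classes taken apart, the deep-like cells differed from the core in more genes than from the shell. In a fit of all 3 classes, 1187 of 13101 genes tested differed from core-like cells (9.06%), with 621 higher (4.74%) and 566 lower (4.32%). Of the same genes 405 differed from shell-like cells (3.09%), with 202 higher (1.54%) and 203 lower (1.55%). The values of the 4 mice did not overlap for 6.04% of genes higher and 8.81% lower than in the core, and for 3.44% higher and 5.36% lower than in the shell. Without projection mouse 3 the counts were 432 and 69. Whether the 2 comparisons differ was itself not tested. Of the 218 genes higher than in all other cells, 205 were also called higher than in the core, 118 than in the shell, 109 than in both and 4 than in neither. Of the 187 lower genes, 179 were also called lower than in the core, 104 than in the shell and 96 than in both. These comparisons share the deep-like sums.

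Some deep-like genes stood apart from both claustrum classes. Lsp1 was at 0.137 CPM in core-like and in shell-like cells, with log2 fold changes of 9.64 (adjusted p = 4.93e-08) and 9.04 (adjusted p = 6.93e-08). Adora1, the adenosine A1 receptor, was at 83.6 ± 7.73 CPM in the core and 77.4 ± 7.66 CPM in the shell (SD, n = 4 mice), rising by 1.54 over the core (adjusted p = 2.51e-05) and by 1.66 over the shell (adjusted p = 5.96e-05). Bcl11a, a zinc finger factor, changed by 2.13 against the core (adjusted p = 1.9e-05) and by 1.14 against the shell (adjusted p = 0.00509). Ctgf was at 3.95 ± 2.87 CPM in the core and 0.129 ± 0.173 CPM in the shell, and changed by 4.33 (adjusted p = 0.00675) and 10.2 (adjusted p = 0.000683). These genes were higher in deep-like cells on either side.

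Others were low in the core and did not pass the threshold against the shell. Nfib, a nuclear factor I transcription factor, was at 21.7 ± 4.92 CPM in the core, 145 ± 18.4 CPM in the shell and 207 ± 24.4 CPM in deep-like cells (SD, n = 4 mice), with changes of 3.23 against the core (adjusted p = 5.25e-07) and 0.50 against the shell (adjusted p = 0.147). Gabra5, the alpha 5 subunit of the GABA-A receptor, was at 11.1 ± 4.71 CPM in the core and 111.5 ± 14.8 CPM in the shell, and stood at 175 ± 63.1 CPM in deep-like cells (core comparison, adjusted p = 5.76e-06; shell comparison, 0.63, adjusted p = 0.312). Cacna1a, a P/Q-type calcium channel, was at 3.29 ± 2.59 and 64.8 ± 14.4 CPM, and 95.9 ± 9.23 CPM in deep-like cells (core comparison, adjusted p = 5.16e-05; shell comparison, 0.56, adjusted p = 0.64). Crym was at 0.852 CPM in the core and 110.5 ± 46.8 CPM in the shell (changes 9.14, adjusted p = 1.59e-05, and 1.91, adjusted p = 0.0925). A missed threshold against the shell does not show that the levels were equal.

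Slc17a6, the vesicular glutamate transporter of many subcortical neurons, lay between the claustrum classes, at 9.71 ± 8.48 CPM in deep-like, 78.6 ± 17.3 CPM in core-like and 0.218 ± 0.297 CPM in shell-like cells (SD, n = 4 mice). Its log2 fold change was -2.95 against the core (adjusted p = 0.00993) and 5.29 against the shell (adjusted p = 0.0031), and against all other cells it was -2.01 and missed the threshold (adjusted p = 0.144). Nnat, encoding neuronatin, was at 100.1, 262, 938 and 1085 CPM in the deep-like sums of the blind mouse and projection mice 1, 2 and 3, and at 191, 325, 611 and 645 CPM in the other sums. Deep-like cells were lower in the blind mouse and projection mouse 1 and higher in the others (change 0.43, adjusted p = 0.876). Against the core Nnat was higher (change 3.50, adjusted p = 0.00794) and against the shell it had a value of -0.52 (adjusted p = 0.825).

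The remaining leading genes by size, each changed the same way in 4 of 4 mice, included several with little known role in these cells. Kcnk2, a leak potassium channel, was at 73.2, 19.8, 1.93 and 22.4 CPM in deep-like sums against 0.458 to 1.23 CPM (change 5.37, adjusted p = 0.0141, and 0.124 without projection mouse 3). Ly6g6e, a cell surface protein, ranged from 4.99 to 127.8 CPM against 0.392 to 3.35 CPM (change 5.32, adjusted p = 0.0199, and 0.119 and 0.127 without projection mouse 2 or 3). Myh3, an embryonic myosin heavy chain, was at 32.6 to 57.8 CPM against 1.06 to 3.03 CPM (change 4.67, adjusted p = 0.00091), under all 17 alternatives past the threshold. Trbc2, a T cell receptor constant segment with a near-identical copy, was at 29.3, 226, 232 and 155 CPM against 3.04 to 7.48 CPM (change 5.09, adjusted p = 0.00289, and 0.0547 without projection mouse 3), and its reads cannot be told from those of the copy with certainty.

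Among the genes that fell most, Gpr6, an orphan G protein-coupled receptor, had 3 counts in all deep-like cells and 2825 counts in the others. Per count summed over all 4 mice, its level in the others was 112.3 times that in deep-like cells (95% interval 38.4 to 545, counting error only). Osr1, a zinc finger factor, was at 1.63, 0.468, 0.321 and 1.75 CPM in deep-like sums against 44.1, 40.7, 75.2 and 49.2 CPM, a log2 fold change of -5.85 (SE 0.51, adjusted p = 0.000833). Glipr1 was at 0.675 ± 0.712 CPM against 25.9 ± 4.99 CPM (change -5.50, adjusted p = 0.00226), in a gene whose exons overlap Krr1 on the other strand. Each of these 3 was past the threshold under all 17 alternatives. Luzp2 (change -6.22, adjusted p = 0.00355) and Tfap2d (-5.83, adjusted p = 0.00636) were not past it without projection mouse 3 (adjusted p = 0.0626 and 0.0616). In the shell Gpr6, Glipr1 and Tfap2d were at 2.28, 5.11 and 2.39 CPM, and in the core at 48.0, 45.7 and 37.9 CPM. Against the shell alone these 3 genes did not pass (adjusted p = 0.104, 0.159 and 0.0941), and Luzp2 did (-3.01, adjusted p = 0.0467).

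Osr1 was lower than in either claustrum class, with changes of -5.22 against the core (adjusted p = 1.22e-05) and -6.30 against the shell (adjusted p = 9.89e-06). Car3 was lower than in the core (-7.30, adjusted p = 3.29e-05), where it was at 61.5 ± 14.5 CPM, and in the shell it was at 0.0852 ± 0.134 CPM (SD, n = 4 mice). Inhba, an activin subunit, had a change of -4.49 (adjusted p = 0.0453, and 0.161, 0.0894 and 0.166 without the blind mouse, projection mouse 1 or 2). Trem2 (-3.69, adjusted p = 0.0453) and Kctd6 (-3.20, adjusted p = 0.0449) were not past the threshold without the blind mouse, projection mouse 2 or 3 (adjusted p 0.112 to 0.249). Trem2 is known from microglia, and its 39.2 ± 5.11 CPM in core-like cells stood beside 0.346 ± 0.193 CPM in shell-like cells.

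Transcription factors and corepressors moved in both directions. Of 33 tested, 7 were higher and 4 were lower, against 1.85% and 1.59% of all genes tested, with a median log2 fold change near 0, and the blocked fit called 7 higher and 7 lower. Bcl11a was at 317, 278, 340 and 299 CPM in deep-like sums against 89.9 to 125.7 CPM (change 1.60, SE 0.15, adjusted p = 0.00091), and Nfib at 188 to 241 CPM against 73.3 to 87.8 CPM (change 1.36, adjusted p = 0.00138). Both passed under all 17 alternatives and their groups did not overlap. Their relatives Nfix (change 1.25, adjusted p = 0.00782) and Nfia (0.98, adjusted p = 0.0173) also rose. Nfix was not past the threshold without projection mouse 1 or 3 (adjusted p = 0.0502 and 0.075), and Nfia was not past it without any of the mice (0.0506 to 0.139). Lmo3 (80.6 to 142.3 CPM against 46.6 to 55.1 CPM, adjusted p = 0.0489) lost its call in the blocked fit (adjusted p = 0.0555) and with any mouse left out (0.0823 to 0.299). Against the shell alone Nfix, Nfia and Lmo3 had values of 0.39, 0.38 and 0.48, none past the threshold (adjusted p 0.322 to 0.686).

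The factors that fell were Nr2f2, Tle1, Mef2c and Id2. Tle1, a Groucho-type corepressor related to Tle4, was at 0, 0.936, 0 and 0.582 CPM in deep-like sums against 7.19 to 11.1 CPM (change -4.14, adjusted p = 0.0219, and 0.0691 to 0.149 with any mouse left out). Id2, an inhibitor of helix-loop-helix factors, was at 323 ± 40.1 CPM against 681 ± 132 CPM (change -1.08, adjusted p = 0.00636, and 0.0502 and 0.0522 without projection mouse 1 or 3). Mef2c, an activity-related factor, was at 577, 814, 248 and 450 CPM against 1180 to 1262 CPM (change -1.21, adjusted p = 0.0479, and 0.122, 0.0844 and 0.26 without the blind mouse, projection mouse 2 or 3). Bcl11b, also known as Ctip2 and high in subcerebral neurons, had a value of 0.68 (adjusted p = 0.174) and passed in the blocked fit (adjusted p = 0.0172). Of 7 upper layer genes tested, 0 were past the threshold in either direction, with a median of -1.74, and the blocked fit called 2 lower. Of 7 layer 5 genes tested, 2 rose, Parm1 (1.28, adjusted p = 0.0244) and Deptor (2.06, adjusted p = 0.0157), against 1.85% of all genes tested. Of these, 0 were past the threshold without projection mouse 1 or 3, and 1 without the blind mouse or projection mouse 2. Against the shell alone Tle1 (-2.89, adjusted p = 0.0389), Mef2c (-1.19, adjusted p = 0.0194) and Deptor (1.55, adjusted p = 0.036) passed. Id2 (-0.46, adjusted p = 0.168) and Parm1 (0.29, adjusted p = 0.939) did not pass against the shell.

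Of 43 potassium channel genes tested, 5 were higher and 2 were lower, against 1.85% and 1.59% of all genes tested, and the blocked fit called 5 higher and 4 lower. Kcnip3, a Kv4-associated protein, was at 223, 100.5, 159 and 121 CPM in deep-like sums against 33.5 to 42.8 CPM (change 1.96, SE 0.25, adjusted p = 0.00355), under all 17 alternatives past the threshold. Kcnmb4 (change 1.44, adjusted p = 0.0117) and Kcnf1 (0.97, adjusted p = 0.0187) were higher, and Kcnv1 (-1.75, adjusted p = 0.00977) and Kcnc1, the Kv3.1 channel (-1.40, adjusted p = 0.00502), were lower. None of these 4 was called without projection mouse 3 (adjusted p 0.0547 to 0.126), nor Kcnmb4 without projection mouse 1 (0.0571), Kcnv1 without projection mouse 2 (0.0501) or Kcnf1 without any mouse (0.0691 to 0.114). Of 27 sodium, calcium and HCN channel genes, 1 was higher and 2 were lower, and the blocked fit called 1 higher and 4 lower. Cacna1a was the higher one, at 95.9 ± 9.23 against 32.3 ± 4.83 CPM (SD, n = 4 mice; change 1.57, adjusted p = 0.00204, under all 17 alternatives past the threshold). Cacna2d1, an auxiliary calcium channel subunit, was among the lower (-0.88, adjusted p = 0.0454) and was not past the threshold with any mouse left out (0.0983 to 0.194). Against the shell alone Kcnk2, Kcnip3 and Cacna2d1 passed (adjusted p = 0.0297, 0.0118 and 0.0118). Kcnab1, Kcnmb4, Kcnf1, Kcnv1 and Kcnc1 did not pass against the shell (adjusted p 0.08 to 0.809).

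Of 21 glutamate receptor genes tested, Grm3, a group II metabotropic receptor, rose from 36.0 ± 2.66 to 98.4 ± 14.01 CPM (change 1.45, SE 0.17, adjusted p = 0.00258, under all 17 alternatives past the threshold). Grik3, a kainate receptor subunit, rose by 1.23 (adjusted p = 0.0213), and Gria4, an AMPA receptor subunit, fell by 1.48 on the log2 scale (adjusted p = 0.0204). Of 13 GABA receptor genes, Gabra5 was higher (1.55, adjusted p = 0.0108). Of 36 receptors for modulators and peptides, 2 were higher and 2 lower, where 1.85% and 1.59% of all genes tested were. Adora1 was at 298, 200, 245 and 244 CPM in deep-like sums against 72.7 to 84.2 CPM (change 1.62, SE 0.15, adjusted p = 0.00091, under all 17 alternatives past the threshold), without overlap. Chrna4, a nicotinic receptor subunit, rose by 1.19 (adjusted p = 0.00705), and Sstr2, a somatostatin receptor, had a change of -1.88 (adjusted p = 0.019). Grik3, Gria4, Gabra5, Chrna4 and Sstr2 lost their calls without projection mouse 3 (adjusted p 0.0616 to 0.176). Without the blind mouse Grik3 (0.0905), Gria4 (0.0538) and Gabra5 (0.051) also lost theirs, without projection mouse 1 Gria4 (0.0836) and Sstr2 (0.0763), and without projection mouse 2 Grik3 (0.108), Gria4 (0.0848), Gabra5 (0.0673) and Chrna4 (0.0597). Against the shell alone Grm3 (0.72, adjusted p = 0.0411) and Chrna4 (1.77, adjusted p = 0.00125) passed. Grik3 (0.45), Gria4 (-0.85) and Sstr2 (-0.07) did not pass against the shell (adjusted p 0.149 to 0.979).

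Among neuropeptides, Penk and Cck fell, 2 of 14 tested, against 1.59% of all genes tested that were lower, and the blocked fit called 5 lower and 1 higher. Penk, the enkephalin precursor, was at 0, 2.65, 3.85 and 3.49 CPM in deep-like sums and at 80.5, 35.8, 43.8 and 45.5 CPM in the others (change -4.21, SE 0.52, adjusted p = 0.00323, and 0.0501 without projection mouse 3). Cck, cholecystokinin, was at 2488, 1862, 480 and 910 CPM against 5059 to 5711 CPM (change -1.89, adjusted p = 0.0347, and 0.113, 0.0643 and 0.193 without projection mouse 1, 2 or 3). Bdnf, a neurotrophin induced by activity, was at 82.2, 212, 108.2 and 187 CPM against 733 to 1378 CPM (change -2.74, SE 0.32, adjusted p = 0.00249, under all 17 alternatives past the threshold). Of 18 immediate early genes tested, Bdnf and Fosl2 (-2.69, adjusted p = 0.0157, and 0.0772, 0.0857 and 0.0999 without the blind mouse, projection mouse 2 or 3) were lower and the other 16 did not pass, Fos among them with 92.5 ± 73.7 CPM against 103.5 ± 66.2 CPM. Of 39 oxidative phosphorylation genes, 0 were past the threshold, and their values ran from -0.27 to 0.34.

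Genes of guidance and adhesion split in direction as well. Of 44 guidance ligands and receptors tested, 2 were higher and 3 lower, against 1.85% and 1.59% of all genes tested. Nrp1, a semaphorin and VEGF receptor, was at 25.2, 58.04, 129.7 and 87.6 CPM against 9.46 to 18.2 CPM (change 2.49, adjusted p = 0.0153, and 0.0807, 0.072 and 0.141 without projection mouse 1, 2 or 3). Flrt2 had a change of 1.36 (adjusted p = 0.026) and Slit3 one of -3.23 (adjusted p = 0.0189), and both lost their calls without projection mouse 1, 2 or 3 (0.0649 to 0.229). Robo3 (-1.57, adjusted p = 0.0399) lost its call in the blocked fit (adjusted p = 0.0755) and with any mouse left out (0.118 to 0.196). Epha5, an ephrin receptor, changed by -0.78 (adjusted p = 0.0395, and 0.203, 0.14 and 0.176 without projection mouse 1, 2 or 3). Of 23 cadherins and protocadherins, Pcdh19, a delta protocadherin, rose from 15.1 ± 4.66 to 76.0 ± 32.9 CPM (change 2.33, adjusted p = 0.00734, and 0.0713 and 0.0616 without projection mouse 2 or 3), and Cdh18 was also higher (2.41, adjusted p = 0.0213). Cdh8 (-2.54, adjusted p = 0.0334), Cdh9 and Cdh22 (-2.90, adjusted p = 0.0488) were lower. Cdh8 and Cdh22 lost their calls without the blind mouse, projection mouse 2 or 3 (0.0504 to 0.253), and Cdh18 without any mouse (0.0565 to 0.134). Against the shell alone Slit3, Robo3, Pcdh19, Cdh9 and Cdh22 passed (adjusted p 0.00106 to 0.0409). Nrp1, Flrt2, Epha5, Cdh8 and Cdh18 did not pass against the shell (adjusted p 0.0899 to 0.546).

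Markers of other cell types were measured beside these results. Of 12 inhibitory neuron markers in the tables, the summed level in deep-like cells ran from 0.814 CPM in the blind mouse to 3792 CPM in projection mouse 3, against 86.0 to 611 CPM in other cells. The table of the blind mouse lists no row for Sst, Gad1 or Gad2, so they count as 0 there. Sst, a marker of inhibitory neurons, was at 198, 7.71 and 784 CPM in the deep-like sums of projection mice 1, 2 and 3 (change 6.98, adjusted p = 0.0582). Of the members, 2 had counts of both Gad1 and Gad2, which encode the enzymes that make GABA. Without the cells of that kind, Sst in members of projection mice 1 and 3 was at 1.64 and 0.628 CPM, and Npy at 4.42 and 78.5 CPM in place of 1161 and 2903 CPM.

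Of 10 astrocyte markers, Slc1a2, the main glial glutamate transporter, was higher in deep-like cells, at 886, 512, 670 and 386 CPM against 77.5 to 144 CPM (change 2.49, SE 0.28, adjusted p = 0.00204, under all 17 alternatives past the threshold). Of the 10, Aqp4, Gfap, Aldh1l1 and Fgfr3 were at 0 in all deep-like sums, and Gja1, Mlc1 and Slc1a3 were at or below 0.321, 0.321 and 0.624 CPM. S100b was at 95.2, 34.3, 2.89 and 1.46 CPM in deep-like sums against 9.27 to 12.9 CPM, and Aldoc at 1.63 to 37.3 CPM against 30.7 to 61.9 CPM. The summed astrocyte level was 425 to 983 CPM in deep-like and 125 to 198 CPM in other cells, and its part in the results was not tested. The summed level of 12 oligodendrocyte markers was 43.9 to 75.4 CPM in deep-like and 61.7 to 745 CPM in other cells. Mbp, myelin basic protein, was lower in deep-like cells (-1.98, adjusted p = 0.0255, and 0.0983, 0.167 and 0.126 without projection mouse 1, 2 or 3), and the part of oligodendrocyte RNA in other results was not tested. Microglial markers summed to 33.2 to 96.9 CPM against 30.3 to 40.9 CPM, and endothelial and mural markers to 11.4 to 31.0 CPM against 83.8 to 145 CPM, nearly all of the latter from Itm2a (-2.88, adjusted p = 0.0408, and 0.0873, 0.0983 and 0.229 without the blind mouse, projection mouse 1 or 3). Of 9 striatal markers 8 were tested, and Penk and Gpr6 were lower, against 1.59% of all genes tested that were lower. The summed level of the 9 was 120 to 204 CPM against 216 to 276 CPM.

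The members were not uniform, and the layer 6b genes divided them. Of the 138 deep-like cells, 81 had a count of none of Ctgf, Cplx3, Nxph4 and Moxd1, 24 had 1 of them, 4 had 2, 16 had 3 and 13 had all 4. Few cells thus lay between those with at most 1 of the 4 genes and those with 3 or 4. The 33 cells with at least 2 are called layer 6b-type, or 23.9% of the members (95% exact Clopper-Pearson interval, 17.1 to 31.9%). Their share depended on the mouse. It was 21 of 38 members in the blind mouse (55.3%, 38.3 to 71.4%), 1 of 48 in projection mouse 1 (2.08%, 0.0527 to 11.1%), 8 of 23 in projection mouse 2 (34.8%, 16.4 to 57.3%) and 3 of 29 in projection mouse 3 (10.3%, 2.19 to 27.4%).

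The order of the mice was the same when cells were thinned to 20000 counts each, with 20 of 27, 1 of 45, 6 of 22 and 2 of 27 members that reached that total in the blind mouse and projection mice 1, 2 and 3. Outside the members, 2 core-like and 1 shell-like cells had 2 of the genes and 2 core-like cells had all 4. Of the layer 6b-type cells 30 were unlabelled, 3 were RSC-labelled and 0 were LEC-labelled. Where within the dissection the cells of each mouse came from was not analysed here.

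**Figure D4:**
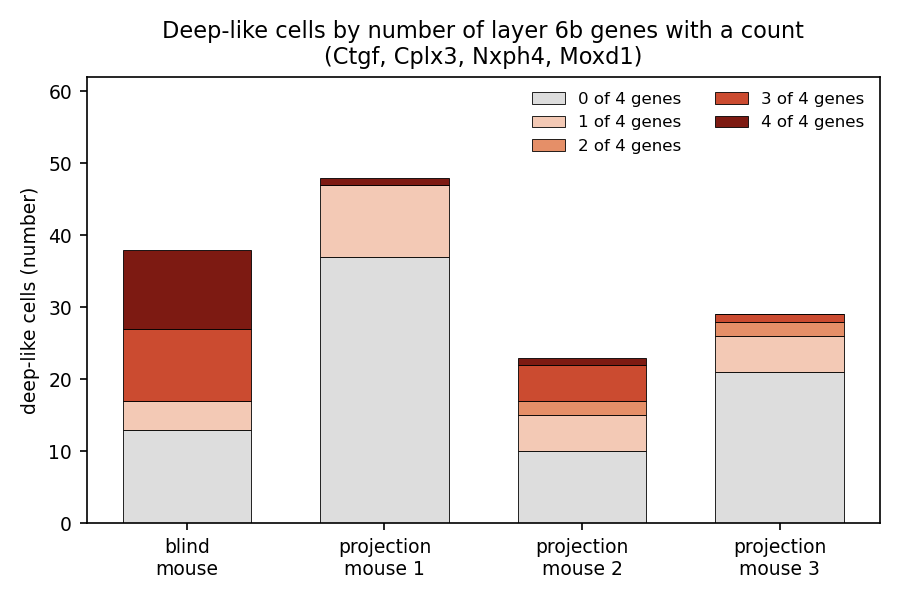
Number of deep-like cells (vertical axis) in each mouse, divided by how many of the 4 layer 6b genes had a count. In the blind mouse 21 of 38 members carry 3 or 4 of the genes, and in projection mouse 1 the number is 1 of 48.

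The layer 6b-type cells were compared with the other members by their values alone, because only the blind mouse and projection mouse 2 had at least 5 of them. These CPM are of summed counts without TMM scaling. Cplx3 was at 1648 and 1117 CPM in layer 6b-type cells of the blind mouse and projection mouse 2, and at 0 and 81.4 CPM in the other members of the same mice. Ctgf was at 312.8 and 120.7 CPM against 2.72 and 0.529 CPM. These genes made the division, so the gap is a description. Other genes are named here after their values were seen, as those with a large gap in the same direction in both mice.

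Kcnab1, a beta subunit of Kv1 channels, was at 258 and 269 CPM in layer 6b-type cells and at 49.0 and 18.5 CPM in the other members. Lrrtm1, a synaptic adhesion protein, was at 265 and 126.3 CPM against 59.9 and 0.529 CPM. Rcan2, a calcineurin regulator, was at 230 and 201 CPM against 13.6 and 48.1 CPM, and Timp2, a metalloprotease inhibitor, at 279 and 246 CPM against 73.5 and 43.9 CPM. Svil, encoding supervillin and a listed layer 6b gene, was at 45.0 and 38.4 CPM against 0 and 1.06 CPM. Each of these stood higher in layer 6b-type cells in both mice. Lpar1, a lysophosphatidic acid receptor of the same list, was at 72.9 and 27.2 CPM against 19.1 and 0 CPM. It had a count in 71.4% of the layer 6b-type cells of the blind mouse. In projection mouse 2 only 12.5% of the 8 layer 6b-type cells had one, so that value rests on very few cells.

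Genes of the deep layers differed in direction between the 2 kinds of member. Of the 16 listed layer 6a genes, 4 were lower in layer 6b-type cells in both mice (Crym, Ppp1r1b, Sox5 and Zfpm2), 4 were higher in both (Grik3, Nxph3, Pcp4 and Pitpnc1) and 8 went opposite ways in the 2 mice, none of which was tested. These directions are by sign alone. Grik3 was nearly equal in the blind mouse, at 92.1 against 89.8 CPM. Nxph3 was at 2.72 CPM in the other members of the blind mouse, where 3 counts would be 8.16 CPM. Rprm, a deep gene of the rule, was at 0 and 24.8 CPM in layer 6b-type cells and at 376 and 459 CPM in the other members, where 3 counts would be 3.21 CPM in the layer 6b-type sum of the blind mouse. Crym was at 0 and 341 CPM against 204 and 784 CPM. Epha4, an ephrin receptor, was at 16.1 and 1.60 CPM against 185 and 99.9 CPM. Camk2n1, an inhibitor of CaM kinase II, was at 17.1 and 25.6 CPM against 182 and 121.1 CPM, and Pcdh19 at 6.43 and 31.2 CPM against 127.9 and 141.7 CPM. These were lower in layer 6b-type cells in both mice. Pitpnc1, a phosphatidylinositol transfer protein, was higher in both, at 115.7 and 207.0 CPM against 24.5 and 66.6 CPM. Tle4, a deep gene of the rule, was at 141.4 and 101.5 CPM against 29.9 and 48.1 CPM, also higher in both. In projection mice 1 and 3, the members that were not layer 6b-type had Rprm at 512 and 391 CPM. Their Cplx3 was at 8.61 and 6.79 CPM, which the division itself keeps low because Cplx3 is among its genes.

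Other layer 6 genes were held by both kinds of member. Bcl11a was at 320 and 442 CPM in layer 6b-type cells and at 248 and 268 CPM in the other members. Fezf2 was at 41.8 and 170 CPM against 43.5 and 90.9 CPM, and Hs3st4 at 199 and 148 CPM against 128 and 223 CPM, so the direction differed between mice. Pcp4 was at 3803 and 1610 CPM against 819 and 1321 CPM, with the larger gap in the blind mouse. Lsp1 was at 118.9 and 45.6 CPM against 19.1 and 99.9 CPM, again with opposite directions. With 21 and 8 layer 6b-type cells and 17 and 15 other members in these mice, single cells weigh heavily on each value. Rprm, for example, had a count in 12.5% of the 8 layer 6b-type cells of projection mouse 2.

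**Figure D5:**
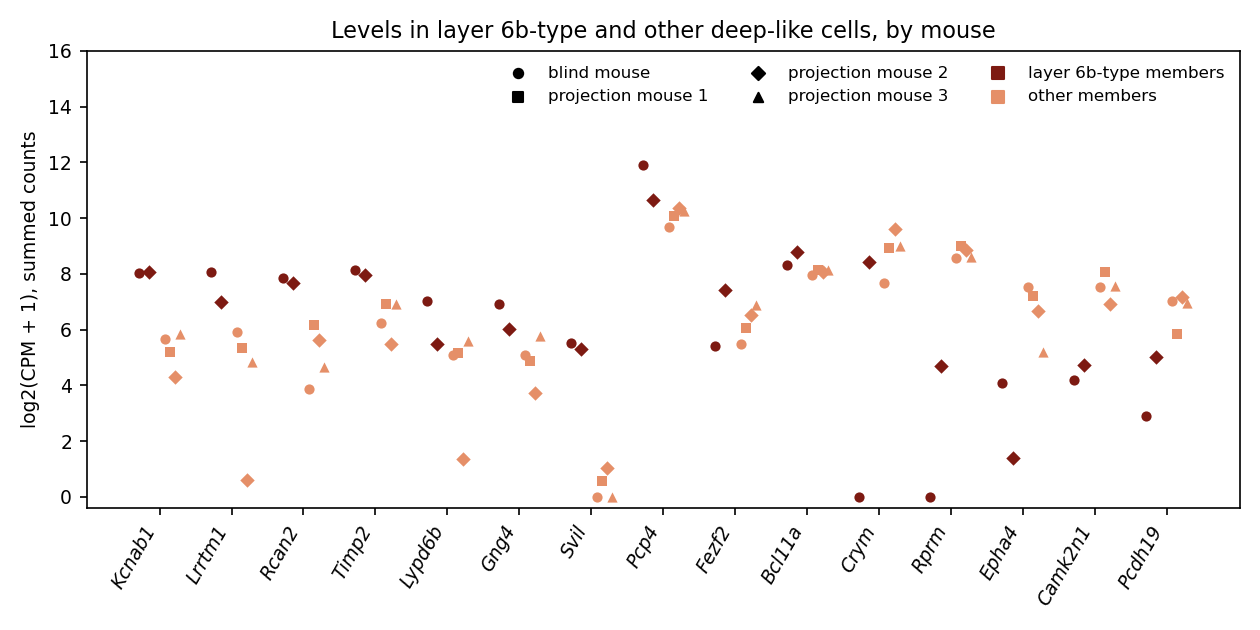
Levels of 15 genes in layer 6b-type members (dark; blind mouse and projection mouse 2) and in other members (light; 4 mice) as log2(CPM + 1) of summed counts. Kcnab1 to Svil are higher in layer 6b-type members, Bcl11a, Fezf2 and Pcp4 are present in both, and Rprm, Epha4 and Camk2n1 are higher in the other members.

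Without the layer 6b-type cells, the comparison with all other cells gave 150 higher and 122 lower genes of 11697 tested. The layer 6a list then had 9 of 16 genes higher and the layer 6b list 1 of 7, and Cplx3 and Ctgf had changes of 1.41 (adjusted p = 0.645) and 1.36 (adjusted p = 0.69). The removed cells were chosen by counts of Cplx3, Ctgf, Nxph4 and Moxd1. The drop of Cplx3 and Ctgf thus follows from the removal, and that of the layer 6b list does so at least in part. Kcnab1, at 2.18 in all members (adjusted p = 0.0243), was not past the threshold without them (adjusted p = 0.608). Of the 71 named genes called with all members, 22 lost their call here. Beside Cplx3, Ctgf and Kcnab1 these were Ly6g6e, Inhba, Trem2, Kctd6, Cpne9, Nfia, Grik3, Kcnmb4, Mef2c and Cacna2d1. The rest were Gria4, Cck, Slit3, Robo3, Flrt2, Cdh18, Cdh22, Fosl2 and Mbp. The removal also left fewer cells, and why these calls were lost was not tested. The claustrum list again had 6 lower genes of 14, though Cpne9 was no longer among them.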

How the data were processed

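Per the labels and the study's methods, the authors picked single cells, tagged reads to cell barcodes and molecular identifiers, aligned them with STAR (version not given in the sources used here) and deposited tables of raw counts that were not normalized. The submitters' processing notes name the build NCBIM37 and Seurat. Whether identifiers were collapsed is not given in the sources used here. The table of the blind mouse lists 16786 genes and that of the projection mice 23216, of which 16575 are shared. A gene listed in only 1 table counted as 0 in the other. Other deposited columns give each cell's animal and projection label.

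The members, gene lists and tests were chosen with earlier results of these data known. Named genes were the rule and filter genes, list genes past the threshold or best known, genes the study names that bear on deep cortical cells (Ctgf, Pcp4, Nnat, Cdh9 and Slc17a6), and the 10 higher and 10 lower with the largest change, the same direction in 4 mice and at least 20 CPM in the higher class. Counts were summed per mouse and class, with at least 5 cells a sum (38, 48, 23 and 29 deep-like cells), and spike-ins left out. Sums were filtered (filterByExpr), scaled by TMM and tested with edgeR 4.0.16 in R 4.3.3, with DESeq2 1.42.0 as an alternative. Nothing pairs libraries except the animal, which the sums of a mouse share. Deviations of such sums from their class means had a median correlation across genes of 0.158 (0.146 to 0.447 over 4 pairs), against -0.0472 for other pairs, so the mouse was also fitted as a block. Tests were tried on simulated data for the comparison with all other cells. Of 200 changed genes edgeR recovered 63.5% at 4-fold (11439 genes) and 1% at 2-fold (11470 genes), so small changes were mostly not detectable. Of the edgeR calls 3.79% at 4-fold and 0% at 2-fold were false. DESeq2 recovered 74.5% and 20%, but 20.7% and 28.6% of its calls were false. In the simulated data its calls were thus less strict than the threshold of 0.05 implies. Those data took their spread from the edgeR fit and held no mouse effect, so they cannot settle this for the real sums. Python 3.11.15, numpy 2.4.6 and pandas 2.3.3 were used. Some measured genes are not reported here.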

Additional observations from a re-analysis of the deposited data

Results flagged for a closer look

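In each of 50 groups of 4 mice (24 genes in 2 classes, and 2 shares) the mouse farthest from the others was examined by Dixon's criterion, which chance passes in about 1 group of 20, and 7 passed. In deep-like cells the blind mouse stood apart for Ctgf (238 CPM), Pcp4 (3134 CPM) and Luzp2 (2.44 CPM). Projection mouse 1 stood apart for Gpr6 (0.468 CPM), Tfap2d (0.936 CPM) and Trem2 (4.37 CPM), all near 0 in the other mice. In other cells projection mouse 1 stood apart for Myh3 (3.03 CPM).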

How the results depend on the processing

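The 71 named genes that passed the threshold against all other cells kept their direction under every alternative in which they were tested, which was all 17 for 69 of them, 16 for Ly6g6e and 14 for Kcnk2, and 19 passed it under all 17. Why the others lost their calls was not tested. The alternatives without layer 6b-type cells and without members that had no deep gene were chosen after seeing the data.

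Leaving out each mouse in turn gave 48 to 317 genes against all other cells (405 with all mice), 432 to 1170 against the core (1187) and 69 to 383 against the shell (405). Against all other cells DESeq2 called 930 genes and the mean of the core-like and shell-like sums as reference 910. Against the core, unlabelled cells alone gave 770 genes. Against the shell, DESeq2 gave 911, a margin of at least 0.5 gave 640, unlabelled cells 264 and members without layer 6b-type cells 247. With the mouse as a block the counts were 513, 1634 and 645, and calls that it changed for named genes stand beside those genes. The share of members was 10.6% when at least 2 deep genes were required, and the layer 6b-type share was 41.3% when 1 of the 4 genes sufficed. Values that turned were Npy, at 1.69 with no call and at -0.29 with the mouse as a block, -4.45 with at least 2 deep genes, -3.57 without cells with Gad1 and Gad2 and -4.31 in unlabelled cells, and Slc17a6, at 1.17 against the mean of core and shell. For the other counts that moved the cause was not tested. With no filter on low counts the median of all genes moved to -0.22 on the log2 scale. No alternatives were run for the layer 6b-type comparison beyond its share, because it had no test.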

Other observations

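A further 2 core-like cells carried counts of all 4 layer 6b genes, and 17 core-like or shell-like cells carried 2 deep genes, so cells with deep cortical genes were also found outside the members. Of the 12 members without any deep gene, 7 came from the blind mouse. Of the 33 layer 6b-type cells, 10 had counts of fewer than 2 of the 5 deep genes that chose the members.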
